A study of Caenorhabditis elegans with 6 samples.

Results

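Microtubules are built from pairs of one alpha-tubulin and one beta-tubulin protein, and the nematode Caenorhabditis elegans makes each of them from several genes whose products are called isotypes. Some isotypes are used by nearly every cell and form the mitotic spindle, while others are known from particular cells, such as the ciliated sensory neurons or the touch receptor neurons. BAG neurons, which sense oxygen and carbon dioxide, are ciliated sensory neurons of the head. The genes described here are 6 alpha-tubulin genes (tba-1, tba-2, tba-4, tba-5, tba-6 and tba-9) and 4 beta-tubulin genes (tbb-1, tbb-2, tbb-4 and tbb-6), 10 of the 47063 genes in the table. They were chosen by gene name, except that tbb-6 was singled out by its measured level in mutant BAG neurons of these same libraries. The levels of tbb-6 are therefore given as a description with no test, and tests are given for the other 9 genes. A further 6 tubulin genes of the table were outside this choice and are described more briefly.

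RNA was sequenced from cells of dissociated embryos that were cultured overnight at 25 °C and sorted by flow cytometry about 24 hours after dissociation. There were 6 libraries in 3 groups of 2. Wild-type BAG neurons were the green fluorescent cells, and wild-type non-BAG cells the non-fluorescent cells, of strain FQ424, which carries wzIs113[Pgcy-9::GFP]. Mutant BAG neurons were the fluorescent cells of strain FQ705, which carries the same reporter and the allele pmk-3(wz31). All 3 groups thus carried a transgene in which the promoter of gcy-9, a receptor guanylyl cyclase gene of BAG neurons, drives green fluorescent protein. Per the labels the reporter acts independently of pmk-3, and over 90% of the sorted BAG cells were fluorescent on inspection. PMK-3 is a p38 MAP kinase, an enzyme in a chain of kinases that respond to axon injury and stress. The gene tbb-6 is known to be switched on through PMK-3 when mitochondria are stressed. What the wz31 allele changes in the gene is not stated in the sources used here. Mutant and wild-type libraries came from different strains, so an effect of pmk-3(wz31) cannot be told apart from other differences between the strains or their cultures. Nothing in the labels says that both libraries of a group were grown separately, so p-values measure only how far these libraries differ, and that spread may be technical.

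The libraries held 6181113 to 8596169 reads. Summed over 10 BAG neuron markers, the normalized read count was 1048 to 1578 in the non-BAG pair of libraries, 62396 to 64114 in the wild-type BAG pair and 65893 to 78541 in the mutant pair, and 10 of 10 markers passed the limma test as higher in either BAG group than in non-BAG cells. These markers include gcy-9, whose promoter drives the reporter used for sorting, so its result was largely set by the sort. Markers of all neurons summed to 6763 to 6777, 39605 to 40948 and 61922 to 72672 in the same order, and 1 of these 10, egl-21, which encodes a carboxypeptidase of neuropeptide processing, was higher in mutant than in wild-type BAG neurons. Of 9 markers of dividing cells, 7 were lower in wild-type BAG neurons than in non-BAG cells and 8 were lower in mutant BAG neurons, with sums of 3562 to 6358, 1450 to 1844 and 1213 to 1362. Markers of body wall muscle summed to 21215 to 24097, 37135 to 41096 and 45877 to 50673, with 9 of 10 lower and 1, unc-54, which encodes a myosin heavy chain, higher in each BAG group than in non-BAG cells. The higher sums in BAG neurons thus rest on unc-54 alone, and where its reads came from was not tested. The pmk-3 transcript itself stood at 404 and 553 in the non-BAG pair, 671 and 585 in the wild-type BAG pair and 259.8 and 284 in the mutant pair. Both mutant libraries lay below the other 4, and the difference from wild-type BAG neurons of -1.202 ± 0.28 (log2 ± SE) missed the threshold (limma adjusted p = 0.0784). It passed in 5 of 17 alternatives, among them DESeq2 (adjusted p = 0.0184), limma on only the 2 groups compared (0.0252) and limma without non-BAG replicate 1 (0.0326) or 2 (0.0306).

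All values below are normalized read counts as deposited, in the order replicate 1 and replicate 2, unless they are said to be per kilobase of exon. Differences are in log2 units of the value plus 1, ± SE, from limma fitted over 14211 genes, with Benjamini-Hochberg adjusted p over all of them and 0.05 as the threshold. All 10 tubulin genes passed the filter on low values. Tubulin genes resemble each other in sequence, and no source used here says how reads that match more than one of them were counted, so the split of reads among close isotypes is uncertain. Because each library pools many cells, fewer cells of a type and less RNA per cell cannot be told apart.

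The gene tbb-6 had the widest range of the 10 tubulin genes. Its normalized read count was 214 and 515 in the non-BAG pair, 473 and 977 in the wild-type BAG pair and 29.1 and 13.8 in the mutant pair. Both mutant libraries were far below all 4 wild-type libraries, and the highest library was 70.8 times the lowest. The counts behind these values were 198 and 831 reads for the non-BAG pair, 518 and 1361 for the wild-type BAG pair, and 27 and 12 for the mutant pair.

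The mean of tbb-6 was 725 ± 357 (SD, n = 2) in wild-type BAG neurons and 21.5 ± 10.8 in mutant BAG neurons, 33.8-fold lower. On the log2 scale the mutant was at -5.01 ± 0.53 from wild-type BAG neurons and at -3.98 ± 0.53 from non-BAG cells, where its mean was 17-fold lower. These are the values that singled the gene out. Ordered by the difference between mutant and wild-type BAG neurons, tbb-6 was the 8th lowest of the 14211 genes and the 3rd lowest of the 5928 genes with a mean of at least 100.

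Within the wild type, tbb-6 was not restricted to BAG neurons. The 2 wild-type groups overlapped, with non-BAG replicate 2 above BAG replicate 1. The mean was 365 ± 213 (SD, n = 2) in non-BAG cells, and the wild-type BAG difference was 1.03 ± 0.53. The replicates of tbb-6 stood further apart than those of the other highly expressed isotypes. Replicate 2 was 2.403 times replicate 1 in non-BAG cells and 2.07 times in wild-type BAG neurons, and 0.474 times in mutant BAG neurons. For tbb-2, the most highly expressed beta-tubulin, the same ratios were 1.06, 1.12 and 1.64.

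**Figure D1:**
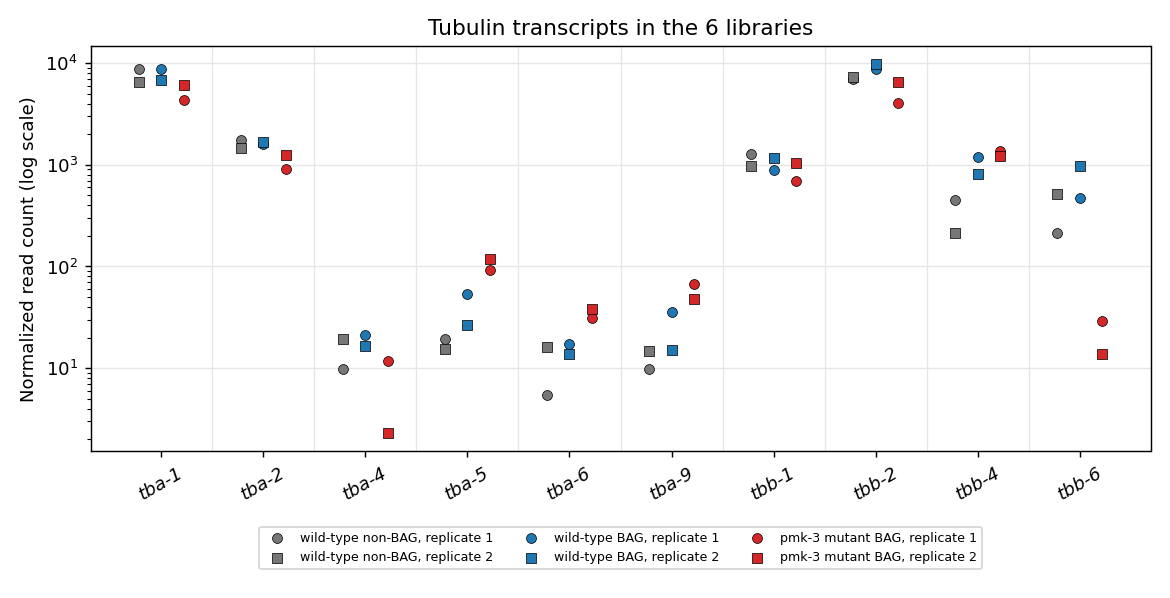
Normalized read count (log axis) of the 10 tubulin genes in each of the 6 libraries; colour gives the group and shape the replicate. The tbb-6 values of the mutant libraries, 29.1 and 13.8, lie far below its wild-type values of 214 to 977, while the tbb-4 values of all 4 BAG libraries lie above both non-BAG libraries.

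The isotypes known from most cells, the alpha-tubulins tba-1 and tba-2 and the beta-tubulins tbb-1 and tbb-2, differed by at most 0.36 log2 units between wild-type BAG neurons and non-BAG cells, and no such difference passed the threshold. All 4 had their lowest means in the mutant, and none of these differences passed either. The gene tba-1 read 8697 and 6500 in the non-BAG pair, 8814 and 6774 in the wild-type BAG pair and 4298 and 6057 in the mutant pair. The wild-type groups interleaved and both mutant libraries were lower than either. For tba-1 the difference was 0.039 ± 0.31 between wild-type BAG neurons and non-BAG cells (limma adjusted p = 0.95) and -0.60 ± 0.31 between mutant and wild-type BAG neurons (limma adjusted p = 0.384).

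The second of the pair, tba-2, read 1754 and 1474 in the non-BAG pair, 1597 and 1673 in the wild-type BAG pair and 900.1 and 1235 in the mutant pair. Again the mutant libraries were the lowest pair. The tba-2 difference of -0.63 ± 0.27 from wild-type BAG neurons did not pass (limma adjusted p = 0.289), and its 95% interval ran from -1.23 to -0.032 before any adjustment for the number of genes. Between wild-type BAG neurons and non-BAG cells tba-2 differed by 0.023 ± 0.27 (limma adjusted p = 0.967).

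The gene tbb-2, which with tbb-1 supplies most beta-tubulin of the early embryo, read 6952 and 7334 in the non-BAG pair, 8703 and 9717 in the wild-type BAG pair and 4018 and 6575 in the mutant pair. Its 3 groups did not overlap, with wild-type BAG neurons highest and mutant BAG neurons lowest. The mutant mean was 1.74-fold lower than that of wild-type BAG neurons, a difference of -0.84 ± 0.31 that did not pass (limma adjusted p = 0.228).

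The gene tbb-1 read 1278 and 972 in the non-BAG pair, 889 and 1154 in the wild-type BAG pair and 696 and 1035 in the mutant pair. All 3 groups overlapped. Its differences were -0.14 ± 0.30 for wild-type BAG neurons against non-BAG cells (limma adjusted p = 0.814) and -0.25 ± 0.30 for mutant against wild-type BAG neurons (limma adjusted p = 0.73).

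Against non-BAG cells, the mutant BAG neurons had values of -0.56 for tba-1, -0.61 for tba-2, -0.39 for tbb-1 and -0.47 for tbb-2, and none passed (limma adjusted p = 0.124 to 0.367). Under quantile scaling, which moved the median of all genes in this comparison from -0.092 to -0.23, the tba-1 value became -0.84 and passed (limma adjusted p = 0.0207). The small tba-1 and tba-2 values between the wild-type groups changed sign with the scaling, to -0.14 and -0.061 under quantile scaling.

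Among the isotypes known from ciliated sensory neurons, the beta-tubulin tbb-4 rose in BAG neurons. It read 448 and 212 in the non-BAG pair, 1198 and 808 in the wild-type BAG pair and 1377 and 1217 in the mutant pair. All 4 BAG libraries were above both non-BAG libraries, and the mutant libraries were above the wild-type BAG libraries by less than the wild-type BAG libraries differed from each other.

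For tbb-4 the mean rose from 330.2 ± 167 in non-BAG cells to 1003 ± 276 in wild-type BAG neurons (SD, n = 2), 3.04-fold, with a difference of 1.67 ± 0.37 (limma adjusted p = 0.0159). Leaving out wild-type BAG replicate 1 ended this call (0.0972), as did leaving out mutant replicate 1 (0.0515) or mutant replicate 2 (0.052), fitting only the 2 groups compared (0.0559) or using no mean-variance trend (0.0815), all limma adjusted p. Mutant BAG neurons were 3.93-fold above non-BAG cells, at 2.07 ± 0.37 (limma adjusted p = 0.00357), and that call passed in all 17 alternatives. Between mutant and wild-type BAG neurons tbb-4 differed by 0.40 ± 0.37, with a 95% interval of -0.44 to 1.23 (limma adjusted p = 0.656).

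The alpha-tubulins of ciliated neurons, tba-5, tba-6 and tba-9, were present at far lower levels, with 5 to 103 reads per library, and had their highest values in mutant BAG neurons. The gene tba-5 read 19.5 and 15.5 in the non-BAG pair, 53.9 and 26.6 in the wild-type BAG pair and 92.7 and 118 in the mutant pair. Its groups were in this order with no overlap. Mutant BAG neurons were 6.03-fold above non-BAG cells, at 2.52 ± 0.48 (limma adjusted p = 0.00453), a call lost without mutant replicate 2 (limma adjusted p = 0.0678).

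Wild-type BAG neurons differed from non-BAG cells by 1.08 ± 0.48 at tba-5 (limma adjusted p = 0.173) and mutant from wild-type BAG neurons by 1.44 ± 0.48 (limma adjusted p = 0.185), and neither passed. In the reference annotation 26 bases of tba-5 exons lie opposite exons of rsd-6, a gene on the other strand with a mean of 450.2 against 54.4 for tba-5. No source used here says whether counting took account of strand, so the tba-5 values are uncertain.

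The gene tba-9 read 9.75 and 14.9 in the non-BAG pair, 35.6 and 15.1 in the wild-type BAG pair and 66.8 and 48.3 in the mutant pair. The groups did not overlap, although wild-type BAG replicate 2 was barely above non-BAG replicate 2. Mutant BAG neurons were 4.68-fold above non-BAG cells, at 2.15 ± 0.57 (limma adjusted p = 0.0222). The tba-9 call was lost without non-BAG replicate 1 (0.0714), mutant replicate 1 (0.154) or mutant replicate 2 (0.0972). Its other differences were 0.89 ± 0.57 for wild-type BAG neurons against non-BAG cells (limma adjusted p = 0.347) and 1.25 ± 0.57 for mutant against wild-type BAG neurons (limma adjusted p = 0.323).

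The gene tba-6 read 5.41 and 16.1 in the non-BAG pair, 17.4 and 13.6 in the wild-type BAG pair and 31.3 and 37.9 in the mutant pair. The wild-type groups overlapped and both mutant libraries were above them. Mutant BAG neurons differed from non-BAG cells by 1.76 ± 0.64, which did not pass (limma adjusted p = 0.0707) but did without non-BAG replicate 2 (limma adjusted p = 0.0296). The remaining alpha-tubulin, tba-4, was low everywhere, with 9.75 and 19.2 in the non-BAG pair, 21.01 and 16.5 in the wild-type BAG pair and 11.9 and 2.30 in the mutant pair. The lowest tba-4 value rested on 2 reads, and none of its differences passed (limma adjusted p = 0.308 to 0.787).

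**Figure D2:**
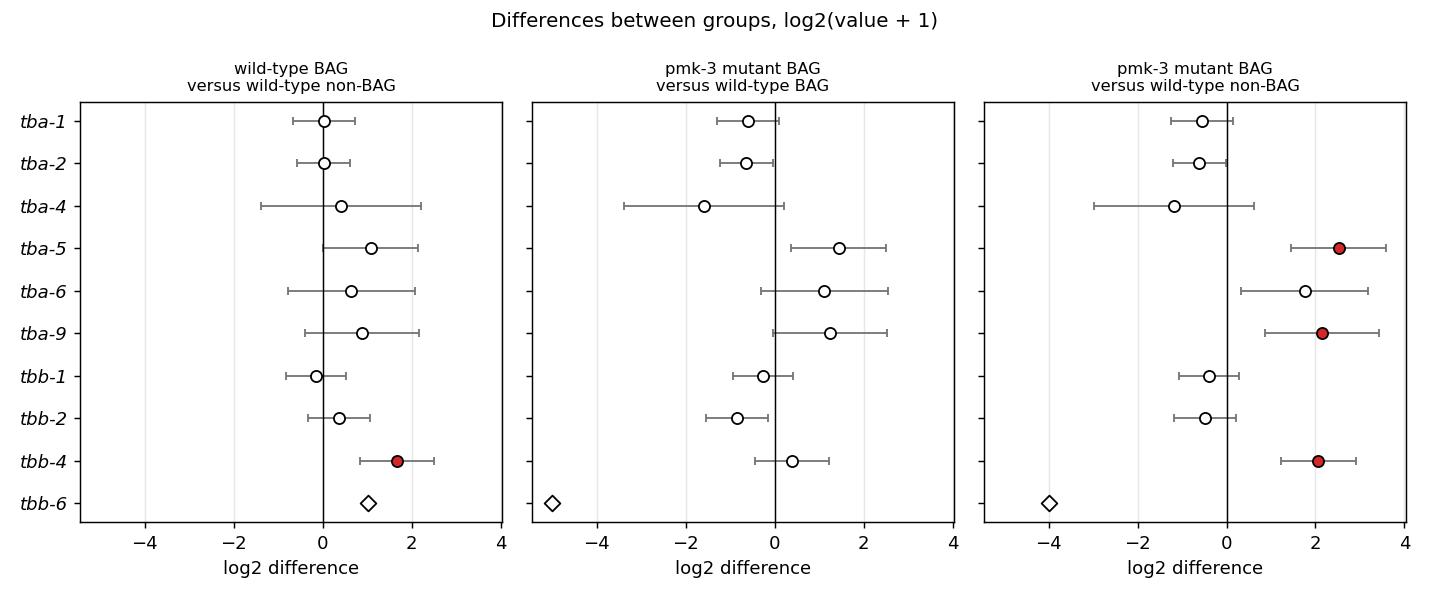
Difference between groups (log2 of the value plus 1) for each tubulin gene in the 3 comparisons; bars are 95% intervals without adjustment for the number of genes, red circles passed limma's adjusted p of 0.05, open circles did not, and the tbb-6 diamond has no bar because it was not tested. Among tested genes tbb-4 at 1.67 is the red point between the wild-type groups, none is red between mutant and wild-type BAG neurons, and tbb-4, tba-5 and tba-9 are red between mutant BAG neurons and non-BAG cells.

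Counted over the 9 tested tubulin genes, 1 was called higher and 0 lower in wild-type BAG neurons against non-BAG cells, where limma called 10.2% of all genes higher and 4.01% lower. At an unadjusted p under 0.05 there were 2. The share of all genes at that unadjusted level was not counted, here or for the counts below. The groups did not overlap for 4 of 9, against 53.6% of all genes, and the median difference was 0.41, against -0.038 over all genes. Between mutant and wild-type BAG neurons, limma, edgeR and DESeq2 each called 0 of 9, and 3 had an unadjusted limma p under 0.05. In that comparison limma called 0.486% of all genes higher and 0.352% lower, so few genes of any kind were called. The groups did not overlap for 8 of 9 tubulin genes, against 50.2% of all genes, and the median was -0.25, against 0.019.

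Between mutant BAG neurons and non-BAG cells, 3 tubulin genes were called higher and 0 lower, against 16.2% and 9.34% of all genes. At an unadjusted p under 0.05 there were 5, with no share over all genes to set beside it. Groups did not overlap for 7 of 9, against 66.1% of all genes, and the median was -0.39, against -0.092. The 3 comparisons share libraries in pairs, so their values are not independent of each other.

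Set per kilobase of exon, so that genes can be compared with each other, the order of levels in wild-type BAG neurons ran from tbb-2 at 6083 ± 473 and tba-1 at 5138 ± 951 through tba-2 at 975 ± 32.0, tbb-1 at 695 ± 128, tbb-4 at 641 ± 176 and tbb-6 at 490 ± 241 (SD, n = 2). Far below came tba-5 at 22.1 ± 10.6, tba-9 at 15.6 ± 8.93, tba-4 at 13.3 ± 2.26 and tba-6 at 10.2 ± 1.73. The libraries of tbb-2 and tba-1 overlapped, as did those of tbb-1 and tbb-4, of tbb-1 and tbb-6, and of tbb-4 and tbb-6. Those of tba-5 overlapped with tba-9 and tba-4, and those of tba-9 with tba-4 and tba-6, while both tba-4 libraries lay above both tba-6 libraries. In wild-type BAG neurons tbb-6 thus had the lowest mean of these 4 beta-tubulin genes, but in replicate 2 it stood at 660, above tbb-4 at 517.

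In mutant BAG neurons the order per kilobase was tbb-2 at 3498 ± 1195, tba-1 at 3413 ± 820, tbb-4 at 829 ± 72.3, tba-2 at 637 ± 141 and tbb-1 at 589 ± 163. The low group held tba-5 at 58.1 ± 10.0, tba-9 at 35.4 ± 8.06, tba-6 at 22.8 ± 3.12, tbb-6 at 14.5 ± 7.31 and tba-4 at 5.03 ± 4.80. Here tbb-6 stood among the low alpha-tubulins, with both of its libraries below both libraries of tba-6. In non-BAG cells tba-1 at 5009 ± 1024 and tbb-2 at 4718 ± 178 again led, followed by tba-2 at 963 ± 118 and tbb-1 at 765 ± 147. There tbb-6 at 246 ± 144 and tbb-4 at 211 ± 107 overlapped, and the other 4 genes lay between 7.11 and 10.3.

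Expressed as shares of all beta-tubulin per kilobase, tbb-6 made up 2.20% and 5.39% in the non-BAG pair, 3.98% and 7.42% in the wild-type BAG pair and 0.442% and 0.148% in the mutant pair. The share of tbb-4 was 4.35% and 2.10%, 9.52% and 5.81%, and 19.8% and 12.4% in the same order. Its mutant libraries held the highest shares, in libraries whose summed beta-tubulin was also among the lowest. The share of tbb-2 was 69.7% and 75.0%, 71.5% and 72.1%, and 59.6% and 69.1%.

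On the alpha side tba-1 made up 81.7% and 79.6% in the non-BAG pair, 79.8% and 75.4% in the wild-type BAG pair and 68.3% and 73.3% in the mutant pair. The share of mec-12 was 2.94% and 3.02%, 5.80% and 6.08%, and 15.5% and 10.7% in the same order. Summed per kilobase, alpha-tubulin was 0.665 to 1.06 times beta-tubulin over the 6 libraries. A share moves when any other isotype of its family moves, so these shares carry no test of their own.

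**Figure D3:**
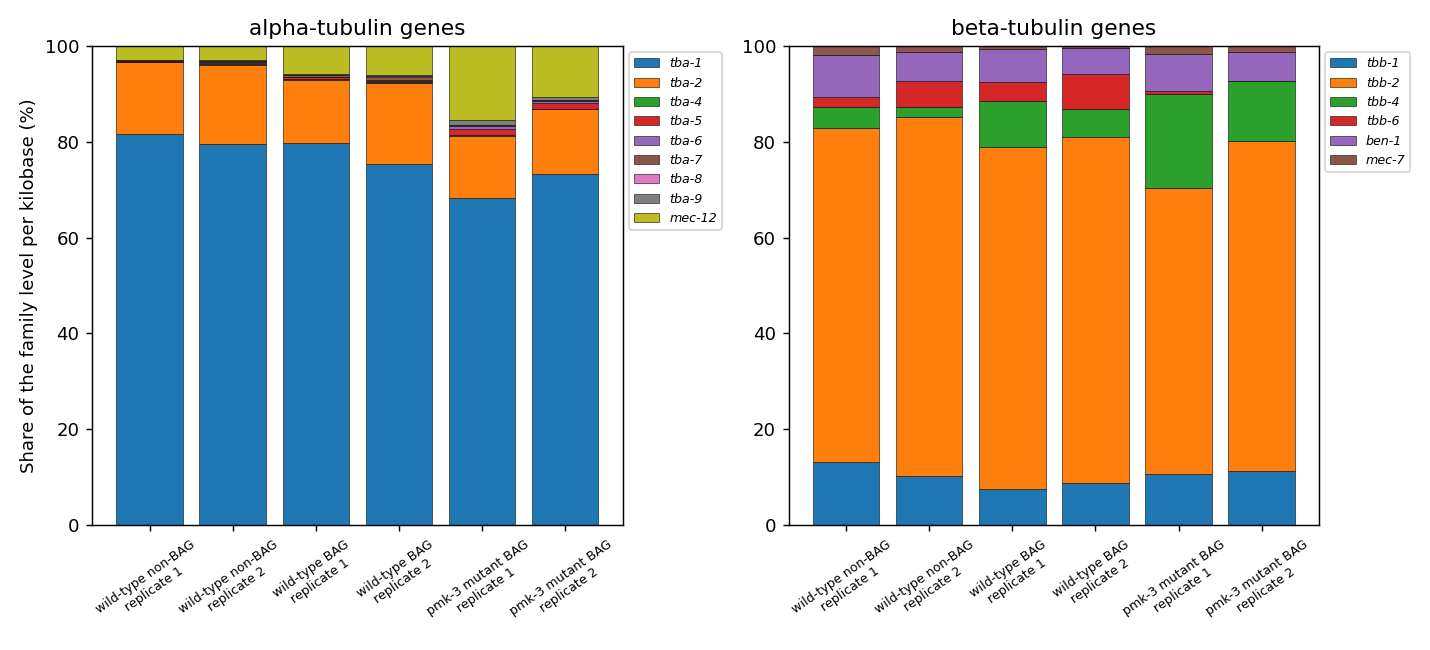
Stacked bars of each gene's share (%) of the summed level per kilobase of the alpha-tubulin genes (left) and beta-tubulin genes (right), 1 bar per library. The tbb-6 segment, 2.20% to 7.42% in wild-type libraries, is 0.442% and 0.148% in the mutant libraries, while the tbb-4 and mec-12 segments are largest there.

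Of the 6 tubulin genes outside the choice, 5 passed the filter on low values. The alpha-tubulin gene mec-12, known as a touch receptor neuron isotype that carries acetylation, read 332 and 262 in the non-BAG pair, 681 and 580 in the wild-type BAG pair and 1034 and 939.5 in the mutant pair. It was called higher in both BAG groups than in non-BAG cells, at 1.09 ± 0.27 in wild type (limma adjusted p = 0.0235) and 1.74 ± 0.27 in mutant (limma adjusted p = 0.00143). The first of these mec-12 calls was lost in 5 of 6 fits that left out 1 library, all but that without non-BAG replicate 1 (limma adjusted p = 0.0633 to 0.129). Between mutant and wild-type BAG neurons mec-12 differed by 0.65 ± 0.27 (limma adjusted p = 0.277).

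Its touch neuron partner, the beta-tubulin mec-7, had its lowest values in wild-type BAG neurons, with 204 and 128 in the non-BAG pair, 75.8 and 71.1 in the wild-type BAG pair and 121.8 and 117 in the mutant pair. The value of -1.12 ± 0.35 between wild-type BAG neurons and non-BAG cells did not pass (limma adjusted p = 0.062). This mec-7 value passed in 5 of 17 alternatives, among them limma without non-BAG replicate 2 (adjusted p = 0.0275), at a mean of at least 50 (0.0424) and under quantile scaling (0.0457), and DESeq2 (0.042). The 6 touch receptor neuron markers summed to 393 to 463 in the non-BAG pair, 199 to 236 in the wild-type BAG pair and 287 to 298 in the mutant pair, an order like that of mec-7 and unlike that of mec-12. None of the 6 was at 0, and of the 5 that could be tested 1, the homeobox gene mec-3, was called lower in wild-type BAG neurons than in non-BAG cells. Their part in the mec-7 and mec-12 values was not tested.

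The other tubulin genes outside the choice did not pass the threshold in any comparison. The beta-tubulin ben-1, the target of benzimidazole drugs in this species, read 1171 and 798 in the non-BAG pair, 1149 and 975 in the wild-type BAG pair and 713 and 785 in the mutant pair. The gamma-tubulin tbg-1, which nucleates microtubules, read 394 and 358, 247 and 232, and 249 and 207 in the same order. Its value between wild-type BAG neurons and non-BAG cells, -0.65 ± 0.27 (limma adjusted p = 0.157), lay in the direction of the dividing cell markers given above, whose part in it was not tested. Between mutant BAG neurons and non-BAG cells tbg-1 was at -0.72 ± 0.27 (limma adjusted p = 0.0821), and passed under quantile scaling (limma adjusted p = 0.0425).

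The alpha-tubulin tba-7 read 3.25 and 17.4 in the non-BAG pair, 30.1 and 47.4 in the wild-type BAG pair and 18.3 and 13.8 in the mutant pair. The wild-type BAG libraries were the highest, and did not overlap the others. The mean was 3.76-fold higher in wild-type BAG neurons than in non-BAG cells, at 2.14 ± 0.75 (limma adjusted p = 0.0924), and passed without non-BAG replicate 2 (limma adjusted p = 0.0142). Exons of tba-7 overlap those of T28D6.3 on the other strand, with a mean of 10.1 against 21.7 for tba-7, so its value is uncertain. The alpha-tubulin tba-8 was at 0 to 29.4 and was not tested.

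Proteins that fold, modify and use tubulin were counted from lists. Each count of calls for wild-type BAG neurons against non-BAG cells stands beside the 10.2% of all genes called higher and the 4.01% called lower. List counts at an unadjusted p under 0.05 have no such share beside them, as it was not counted over all genes. Among 21 tubulin folding genes, 3 were called higher and 0 lower, near the shares over all genes, with 7 at an unadjusted p under 0.05 and a list median of 0.48 against -0.038 over all genes. They were subunits of the chaperonin that folds tubulin and actin, cct-1 at 1.16, cct-4 at 1.05 and cct-3 at 0.88 (limma adjusted p = 0.0134, 0.0197 and 0.0499). The cct-3 call passed in 5 of 17 alternatives, the cct-4 call in 11 and the cct-1 call in 14. Each was lost in at least 2 of the 6 fits that left out 1 library (limma adjusted p up to 0.167), and cct-3 also in edgeR (adjusted p = 0.0648). Exons of cct-1 also overlap those of T05C12.8 on the other strand, a gene with a mean of 279.7 against 623 for cct-1.

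Of 9 tested genes that modify tubulin, 2 were called higher in wild-type BAG neurons than in non-BAG cells and 0 lower, against 10.2% and 4.01% of all genes. These were ccpp-1, a carboxypeptidase that removes glutamate side chains from ciliary tubulin, at 1.69 ± 0.30 (limma adjusted p = 0.00497), and atat-2, a tubulin acetyltransferase, at 1.36 ± 0.29 (limma adjusted p = 0.0131). The ccpp-1 call passed without any 1 library, and the atat-2 call ended without wild-type BAG replicate 1 (0.0676) or 2 (0.0507).

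Among 27 genes that bind, nucleate or sever microtubules, 1 was called higher and 2 lower in the same comparison, against 10.2% and 4.01% of all genes. The gene ptl-1, the worm relative of the neuronal protein tau, read 126 and 201 in the non-BAG pair, 1167 and 1209 in the wild-type BAG pair and 606 and 684 in the mutant pair. It rose by 2.89 ± 0.30 in wild-type BAG neurons (limma adjusted p = 0.000215), and passed without any 1 library. The lower pair was noca-1, which organizes microtubules away from centrosomes, at -1.52 ± 0.30 (limma adjusted p = 0.00838), and gip-1, a subunit of the gamma-tubulin complex, at -0.94 ± 0.27 (limma adjusted p = 0.0461). The gip-1 call was lost in each of the 6 fits that left out 1 library (limma adjusted p = 0.0559 to 0.159), and the noca-1 call without wild-type BAG replicate 2 (limma adjusted p = 0.0619).

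Of 18 motors of axons and cilia, 4 were called higher and 0 lower in wild-type BAG neurons than in non-BAG cells, against 10.2% and 4.01% of all genes. The axonal kinesin unc-104, which carries synaptic vesicle precursors, was highest in mutant BAG neurons, with 450.5 and 342 in the non-BAG pair, 2604 and 1812 in the wild-type BAG pair and 3643 and 3790.2 in the mutant pair. It rose by 2.47 ± 0.28 in wild-type BAG neurons (limma adjusted p = 0.000414). The others were motors of intraflagellar transport, the movement of cargo along ciliary microtubules. They were the dynein subunits xbx-1 at 2.27 ± 0.34 and che-3 at 1.80 ± 0.37, and the kinesin klp-11 at 1.21 ± 0.27 (limma adjusted p = 0.00191, 0.00996 and 0.0159).

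Leaving out wild-type BAG replicate 1 ended the calls of che-3 (limma adjusted p = 0.0636) and klp-11 (0.115), and klp-11 also lost its call without mutant replicate 1 (0.059) or 2 (0.0604). In the reference annotation klp-11 shares exon sequence with F20C5.11 on the same strand, so its value is uncertain.

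In mutant against wild-type BAG neurons, where 0.486% of all genes were called higher and 0.352% lower, these lists held 1 call. The dynein heavy chain gene dhc-1, which encodes the motor that moves cargo toward microtubule minus ends, read 8342 and 12040 in the non-BAG pair, 13526 and 12911 in the wild-type BAG pair and 4284 and 4676 in the mutant pair. It fell by 1.56 ± 0.29 on the log2 scale (limma adjusted p = 0.0498). The dhc-1 call was lost without either wild-type BAG library (limma adjusted p = 0.138 and 0.199) or either mutant library (limma adjusted p = 0.372 and 0.528), and in edgeR (adjusted p = 0.0587), and passed in 8 of 17 alternatives. None of the folding, modification or binding genes was called by limma in that comparison, with 5, 2 and 4 at an unadjusted p under 0.05, respectively. Their medians were -0.36, -0.086 and -0.29, against 0.019 over all genes.

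The gene lists also covered the kinases around PMK-3 and the mitochondrial stress response, since tbb-6 is known from both. Of 13 kinase cascade genes, 2 were called higher in wild-type BAG neurons than in non-BAG cells and 0 lower, near the 10.2% and 4.01% of all genes. These were the MAP kinase kinase mkk-4 at 1.63 ± 0.29 (limma adjusted p = 0.0052) and the MAP kinase kinase kinase dlk-1 at 1.02 ± 0.26 (limma adjusted p = 0.0275), which act upstream of PMK-3 after axon injury. The dlk-1 call was lost in 5 of 6 fits that left out 1 library (limma adjusted p = 0.0611 to 0.155), and the mkk-4 call in none.

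In mutant against wild-type BAG neurons 1 cascade gene was called, the MAP kinase kinase sek-3, which read 548 and 576 in the non-BAG pair, 979 and 751 in the wild-type BAG pair and 290.0 and 305 in the mutant pair. Both mutant libraries were below the other 4, as for tbb-6 and pmk-3, but also for tba-1, tba-2, tbb-2, ben-1 and dhc-1. The share of all genes with this order was not counted. The sek-3 value fell by 1.53 ± 0.26 (limma adjusted p = 0.0383). That sek-3 call was lost without either wild-type BAG library (limma adjusted p = 0.135 and 0.134) or either mutant library (limma adjusted p = 0.301 and 0.511), and in edgeR (adjusted p = 0.0505), and passed in 9 of 17 alternatives.

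Of 10 tested genes of the mitochondrial stress response, limma called 0 in each comparison. Over all genes it called 10.2% higher and 4.01% lower in wild-type BAG neurons against non-BAG cells. For mutant against wild-type BAG neurons the shares were 0.486% and 0.352%, and for mutant BAG neurons against non-BAG cells 16.2% and 9.34%. In the same order, 0, 0 and 2 of the 10 had an unadjusted limma p under 0.05, a level not counted over all genes. As few genes of any kind were called between mutant and wild-type BAG neurons, the 0 of 10 there says little. The mitochondrial chaperone hsp-6 read 4140 and 3945 in the non-BAG pair, 6867 and 4439 in the wild-type BAG pair and 4372 and 4880.4 in the mutant pair. The wild-type BAG and mutant values overlapped, at a difference of -0.26 ± 0.29 (limma adjusted p = 0.718). For hsp-60, another mitochondrial chaperone, that difference was 0.13 ± 0.26 (limma adjusted p = 0.845), and for atfs-1, the transcription factor of this response, -0.19 ± 0.25 (limma adjusted p = 0.769).

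**Figure D4:**
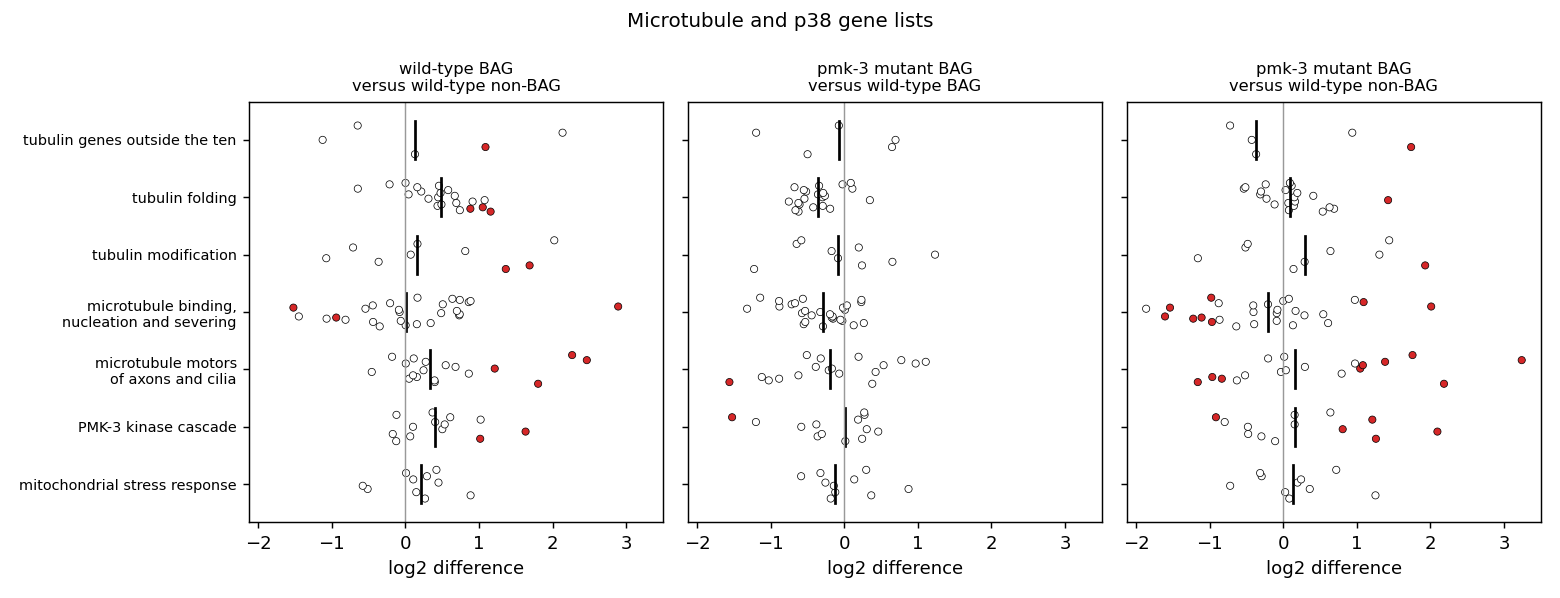
Difference between groups (log2 of the value plus 1) for each tested gene of 7 lists in the 3 comparisons; red points passed limma's adjusted p of 0.05 over all genes and black lines are list medians. Between mutant and wild-type BAG neurons the red points are dhc-1 at -1.56 among the motors and sek-3 at -1.53 in the kinase cascade.

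Against non-BAG cells, mutant BAG neurons had 6 of 18 motor genes called higher and 3 lower, and 2 of 27 binding genes higher and 6 lower. Of 21 folding genes 1, coel-1, was called higher (limma adjusted p = 0.0454), as was 1 of 9 modification genes, ccpp-1. Of the 13 kinase cascade genes, 4 were called higher, mkk-4, dlk-1, rpm-1 and mlk-1 (limma adjusted p = 0.0441 for mlk-1), and 1 lower, sek-3. The axonal kinesin unc-104 was at 3.24 ± 0.28 (limma adjusted p = 5.1e-05) and ptl-1 at 2.01 ± 0.30 (limma adjusted p = 0.00117). Among the lower genes, noca-1 was at -1.54 ± 0.30 (limma adjusted p = 0.00524) and dhc-1 at -1.16 ± 0.29 (limma adjusted p = 0.0182). The noca-1 call was lost without mutant replicate 2, at -1.38. The dhc-1 call was lost without mutant replicate 1, at -1.1, or 2, at -1.23, and with no mean-variance trend (limma adjusted p = 0.0621). These counts stand beside the 16.2% and 9.34% of all genes called higher and lower there.

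The genes whose pattern was most like that of tbb-6 were found by Pearson's r of log2 values over the 6 libraries, in the 1592 tested genes that averaged 100 or more and ranged over at least 2 log2 units. The 5 highest were K09F6.9 and K09F6.10 (r = 0.991 each), phf-33 (r = 0.988), T08B2.4 (r = 0.981) and the pseudogene arl-7 (r = 0.975). K09F6.9 read 2031 and 4824 in the non-BAG pair, 3320.1 and 4865 in the wild-type BAG pair and 496 and 367 in the mutant pair. It shared with tbb-6 the higher replicate 2 in both wild-type groups and the higher replicate 1 in the mutant.

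The same 3 orders of replicates were seen in K09F6.10, phf-33, T08B2.4 and arl-7. Their log2 differences between mutant and wild-type BAG neurons were -3.23 for K09F6.9, -2.61 for K09F6.10, -3.08 for phf-33, -1.92 for T08B2.4 and -2.34 for arl-7, each smaller in size than the -5.01 of tbb-6. The tubulin gene lies on chromosome V, K09F6.9 and K09F6.10 on II, phf-33 and arl-7 on X and T08B2.4 on I. As the likeness was searched for over these libraries, r is a description with no test. The shared orders of replicates and the low mutant values largely follow from that search and are no further evidence of likeness.

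**Figure D5:**
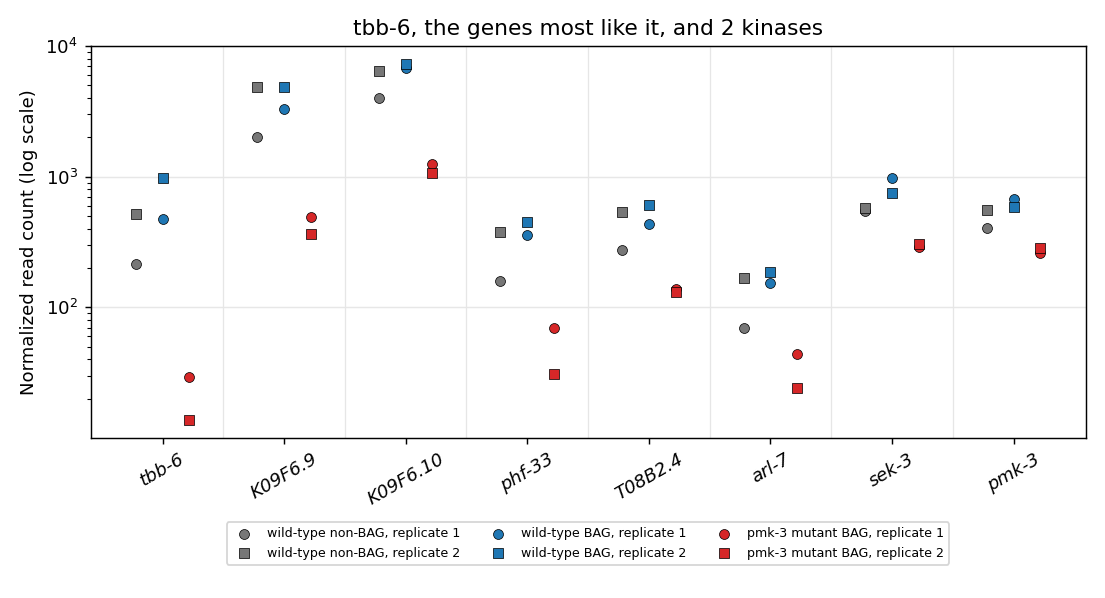
Normalized read count (log axis) in each library of tbb-6, of the 5 genes whose values over the 6 libraries were most like it, and of the kinase genes sek-3 and pmk-3. In each of the 8 genes both mutant libraries (red) lie below all 4 wild-type libraries, from 29.1 and 13.8 for tbb-6 to 1259 and 1066 for K09F6.10. For the 5 genes picked by likeness to tbb-6, this order was largely set by the search, and tbb-6 itself was singled out by its mutant level. The share of all genes with this order was not counted.

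For tbb-4 the same search gave ehs-1 (r = 0.994), daf-19 (r = 0.993), T24H10.4 and eak-7 (r = 0.992 each) and ftt-2 (r = 0.99). The gene daf-19 encodes the RFX transcription factor of ciliated sensory neurons, and read 1384 and 852 in the non-BAG pair, 3645 and 2441 in the wild-type BAG pair and 3495 and 3660.3 in the mutant pair. Like tbb-4, its 4 BAG libraries lay above both non-BAG libraries. The endocytosis gene ehs-1 and ftt-2, which encodes a 14-3-3 protein, also lay higher in all 4 BAG libraries. These genes were picked for their likeness to tbb-4 over the same libraries. Their shared order was thus largely set by the search, and a link between daf-19 and tbb-4 was not tested.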

How the data were processed

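RNA sequencing values came from 1 table that the authors deposited, with 47063 genes and 1 column for each of 6 libraries. The deposited signal values are counts that the authors normalized, as the deposited table's title says, and each is a whole multiple of what 1 read is worth in its library (100.0% of values, to 0.01 of a read). Read numbers were recovered from those steps. Per the submitters' processing notes STAR, HTSeq and DESeq2 were used, without versions or roles. No source used here names the genome build, the annotation or whether strand was used, so coordinates are left out. Of the gene identifiers, 98.61% were in the reference annotation, which gave exon lengths, chromosomes and exon overlaps. Groups were taken from the labels.

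Genes that reached 10 in 2 or more libraries entered limma 3.58.1 (R 4.3.3) on log2(value + 1), which understates the change of low genes. The test was two-sided with a mean-variance trend, and the 3 groups shared a fit with 3 residual degrees of freedom. Replicates varied beyond sampling noise, at chi-square values per degree of freedom of 39.4 for non-BAG, 27.3 for wild-type BAG and 9.45 for mutant libraries. Alternatives used the recovered reads in edgeR 4.0.16 (quasi-likelihood) or DESeq2 1.42.0, a pseudocount of 0.5 or 8, all genes or only those that averaged 50 or more, TMM or quantile scaling, a replicate block, no trend, a fit of the compared pair of groups alone, or 5 of the 6 libraries, where a library left alone in its group took its spread from the others. Only the main limma fit, and none of the alternatives, was tested on simulated data.

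The tubulin genes, lists and tests were chosen with earlier results of these data known. From each list and comparison up to 4 members were named, by size of change among those called or, with none called, by mean level, and for tbb-6 and tbb-4 the 5 genes with the highest r. The genes unc-54, egl-21, mec-3 and mlk-1 were named after their values were seen.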

Additional observations from a re-analysis of the deposited data

How the results depend on the processing

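Over 17 alternatives the tbb-6 difference between mutant and wild-type BAG neurons ran from -5.54 to -4.49, and that between mutant BAG neurons and non-BAG cells from -4.61 to -3.35. Each group had 2 libraries, the fit had 3 residual degrees of freedom, and tba-4, tba-5, tba-6 and tba-9 rested on 2 to 103 reads a library. The filter at a mean of at least 50 left out tba-4, tba-6 and tba-9. Where another setting ended a call, the cause was not tested.

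The count of 1 called tubulin gene between the wild-type groups became 0 without the trend and with only the 2 groups compared, and was 0 to 1 without 1 library. The count of 0 between mutant and wild-type BAG neurons was 0 in all 17 alternatives. The count of 3 between mutant BAG neurons and non-BAG cells was 2 at a mean of at least 50, 4 under quantile scaling and with the replicate block, and 1 to 4 without 1 library. Over all genes, the 2014 calls between the wild-type groups became 1261 with only the 2 groups compared and 1234 to 2209 without 1 library. The 69 higher and 50 lower calls between mutant and wild-type BAG neurons became, in sum, 221 at a pseudocount of 8, 685 with the replicate block, 1 without the trend, 656 with only the 2 groups compared, 689 in DESeq2 and 0 to 555 without 1 library. Of the 3628 calls between mutant BAG neurons and non-BAG cells, the fits without 1 library gave 1372 to 3655.

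The labels name no shared source for equal replicate numbers, and deviations of same-numbered libraries correlated at 0.460, 0.00403 and 0.0458 over genes in the 3 pairs of groups, so the block is an alternative only. With the replicate block the wild-type groups gave 2847 calls and mutant BAG neurons against non-BAG cells 4686. The block added tba-6 in the latter (limma adjusted p = 0.0464), mec-7 (0.0333) and tba-7 (0.0421) between the wild-type groups, and pmk-3 between mutant and wild-type BAG neurons (0.0279).

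Values that were not called changed sign 18 times. Between the wild-type groups tba-1 was -0.14 under quantile scaling and -0.17 to 0.25 without 1 library. There tba-2 was -0.00366 under TMM, -0.061 under quantile scaling, -0.00348 in edgeR and -0.10 to 0.15 without 1 library. Without 1 library tba-4 was -0.042 to 0.87, tba-6 -0.062 to 1.35, tbb-1 -0.33 to 0.059 and ben-1 -0.15 to 0.41. Between mutant and wild-type BAG neurons tbb-1 was -0.54 to 0.031 without 1 library, and tbg-1 was 0.035 under TMM, 0.034 in edgeR and -0.21 to 0.058 without 1 library. Between mutant BAG neurons and non-BAG cells tba-7 was -0.12 to 1.99 without 1 library. The median of all genes moved from -0.038 to -0.14 under quantile scaling between the wild-type groups and from 0.019 to 0.13 under TMM between mutant and wild-type BAG neurons.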

Other observations

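The genes next to tbb-6 on chromosome V were looked at after the tbb-6 values were seen. In the reference annotation ugt-56 ends 315 bases before tbb-6 on the same strand. It read 16.2 and 21.1 in the non-BAG pair, 50.2 and 53.9 in the wild-type BAG pair and 31.3 and 34.5 in the mutant pair. Its mutant libraries lay between the 2 wild-type groups, unlike those of tbb-6.

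On the other side ssp-35 lies 131 bases beyond tbb-6 on the opposite strand, and read 15.2 and 50.2 in the non-BAG pair, 13.7 and 60.3 in the wild-type BAG pair and 1.08 and 1.15 in the mutant pair. As for tbb-6, both mutant libraries were below all 4 wild-type libraries and replicate 2 was the higher in both wild-type groups. Mutant ssp-35 was at -3.83 from wild-type BAG neurons, which missed the threshold (limma adjusted p = 0.0769). Each mutant value of ssp-35 is what 1 read is worth in its library, so this difference rests on values near the floor. Whether ssp-35 reads come from tbb-6 transcripts was not tested. No source used here says whether counting took account of strand.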
